A study of Mus musculus with 23 samples.

Results

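The genes described here were those whose array names start with Rpl or Rps followed by a digit, the names of the proteins of the large and small subunits of the cytosolic ribosome. Names starting with Rps6k, which are kinases, and 15 names marked -ps, which are pseudogenes, were left out. The rule found 81 genes, measured as 97 of the 31395 transcript identifiers in the deposited log2 table. These were 57 identifiers of 49 Rpl genes and 40 identifiers of 32 Rps genes, and 14 genes had several identifiers. All 97 were kept by the filter on low signal, and 95 were well above background on all 23 arrays. The exceptions, Rpl10l and Rpl39l, are paralogs best known from the testis. The name rule also caught Rps19bp1, a nucleolar protein that binds Rps19 and is not part of the ribosome, and Rps4y2, which RefSeq lists as Rps4l, a transcribed pseudogene.

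The samples came from female C57BL/6 mice that were 5 weeks old at the start and were housed singly. Mice of the lean group (SC) had standard chow for 8 weeks, and mice of the obese group (CM) had a free choice of chow and a chocolate mixture over the same time. Both groups then went through an 11-day battery of behavioral tests. In its test of limited access, SC mice also received the chocolate mixture for a short time each day, so the controls were not naive to it, and each group went back to its first diet before it was killed. Each mouse gave a frontal cortex (FC), a striatum (ST) and one more sample, which the series design calls hypothalamus and the sample labels call the thalamic region, named HT here. There were 4 arrays per group (lean mice L52, L54, L56 and L58, and obese mice O52, O54, O56 and O58), except CM FC with 3, since the FC array of mouse O52 was not analysed here.

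The arrays lay on 3 slides, which held 8, 8 and 7 of them. All CM FC arrays were on slide 3, while SC FC arrays were on slide 1, apart from L52 on slide 2. All 4 CM ST arrays were on slide 1 with 1 SC ST array, and all 4 CM HT arrays were on slide 2 with 1 SC HT array. In FC, therefore, no slide held both diets, and diet and slide could be compared only through the other regions. Arrays of a group correlated at 0.978 to 0.997 over all identifiers, between 36432 and 42261 spots per array were above background, and the number of arrays limited the precision. The labelled regions were checked on marker genes: 12 of 13 striatal identifiers were higher in SC ST than in SC FC. In SC HT, 9 of 12 hypothalamic and 9 of 9 thalamic identifiers were higher than in SC FC, with 1 hypothalamic identifier lower, so these samples carried markers of both structures. Against SC ST, 5 of 12 hypothalamic identifiers were higher in SC HT and 1 was lower, and 9 of 9 thalamic identifiers were higher. The mean hypothalamic marker level reached 10.94 in SC ST, within the SC HT range of 9.47 to 12.67. Of 9 cortical identifiers, 4 were lower in SC ST than in SC FC and 6 were lower in SC HT, with 0 higher in either.

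Ribosomal proteins are made in matched amounts from many unlinked genes, and most are needed to build or run the subunit they belong to. Their mRNAs share a stretch of pyrimidines that begins at the cap, the 5′ terminal oligopyrimidine (TOP) motif, through which mTORC1 signalling controls their translation. In brain they are among the most abundant mRNAs of neurons and glia, and feeding state acts on the mTORC1 pathway in hypothalamic neurons. In whole tissue, fewer cells of a type and less RNA per cell cannot be told apart.

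RefSeq entries were found for 81 of 81 genes. Stretches of 30 bases around annotated start sites are shown for Rps6, Rps21, Rps24 and Rpl22l1, on build GRCm38.p6 and 5′ to 3′. Each comes from a promoter entry picked because it held the run described below within 10 bases of the start. These stretches therefore do not show how common the run is. They are shown because the TOP motif is known from the mRNAs of this gene family, although it is not particular to them. Capitals start at the C nearest to the annotated start that is followed by at least 4 C or T, and end where these pyrimidines end; pyrimidines directly before that C are in lower case.
Rps6, chr4:86857348-86857377, minus strand: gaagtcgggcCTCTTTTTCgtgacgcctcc
Rps21, chr2:180257369-180257398, plus strand: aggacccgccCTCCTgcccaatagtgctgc
Rps24, chr14:24490668-24490697, plus strand: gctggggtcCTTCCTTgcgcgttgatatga
Rpl22l1, chr3:28805498-28805527, plus strand: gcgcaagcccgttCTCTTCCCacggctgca
Such a C, whatever base came before it, stood at the annotated start in 12 of 73 promoter entries of 61 member genes, 16.4%, against 2.51% of 32851 promoter entries of all genes. Within 10 bases of the start, one was found in 53.4% of member entries and 30.7% of all entries, on the gene's own strand. Of 75 entries of mitochondrial ribosomal proteins, 0 had one at the start and 41.3% within 10 bases.

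The probes are 60 bases long, and 175 of them measured the 97 identifiers. The central 30 bases are shown for the probes of genes with some of the larger differences, 5′ to 3′, with G and C in capitals, because the base composition of a probe moved with its difference. Coordinates are those of the whole probe on build mm9, which the array files give.
Rps21, chr2:179993084-179993143, probe G+C 30%: GaaatCGGGaatttGttaCaaataaaaGtt
Rpl4, chr9:64026265-64026324, probe G+C 35%: GCaaGtaGaGaCaGCatatttCaataaatC
Rpl22l1, chr3:28706237-28706296, probe G+C 35%: aattGGCCtCtGCttGtaataCaatGaaaG
Rps4y2, chr6:148304043-148304102, probe G+C 35%: aCGtttGtttataCttaaaaGttttttaaG
Rpl28, chr7:4744951-4745010, probe G+C 50%: CtGCtCCaGtttCttGatCaaGaGGaataa
Rpl19, chr11:97889780-97890765, probe G+C 51.7%: GtaCtGCCaatGCtCGGatGCCtGaGaaGG
Rps19bp1, chr15:80091168-80091227, probe G+C 48.3%: aaGtGGaCttCtaGtttGGCGGaaCCatCa
The coordinates of the Rpl19 probe are wider than its 60 bases because they enclose a gap.

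As a family, the ribosomal protein identifiers moved little between groups on the quantile-normalized values. Other scalings, and slide as a term in the fit, made some differences of the family larger and others smaller, as given below. For each array, the deviation of each identifier from its own mean over 23 arrays was taken on the log2 scale, and the median over the 97 was used as a description of the family. This median lay between -0.20 and 0.02 in SC FC, between -0.16 and -0.13 in CM FC, between -0.08 and 0.04 in SC ST, and between 0.06 and 0.14 in CM ST. In HT it lay between 0.02 and 0.13 on chow and between 0.03 and 0.07 on the chocolate choice. CM ST arrays were all above SC ST arrays, while the diet groups overlapped in FC and in HT. The overlap in FC came from SC mouse L52 on slide 2, at -0.20. The SC FC arrays of slide 1 lay between -0.08 and 0.02, above the CM FC arrays. In ST, the highest SC array was that of L52 on slide 1, the slide of the CM ST arrays. It lay at 0.04, against 0.06 for the lowest CM ST array.

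**Figure D1:**
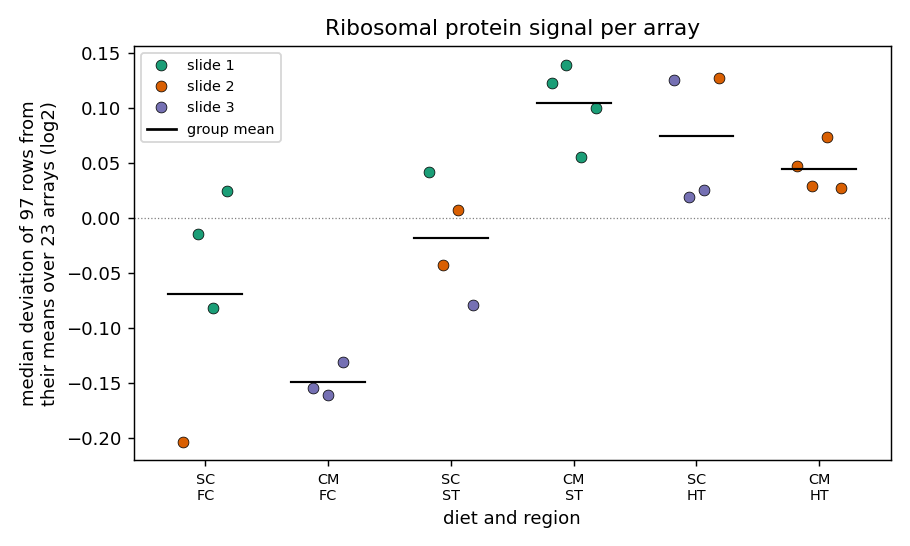
Median over 97 ribosomal protein identifiers of the log2 deviation from each identifier's mean over 23 arrays, per array (points), by region and diet, with the slide of each array marked and the group mean as a line. The 3 CM FC arrays lie between -0.16 and -0.13, within the range of the 4 SC FC arrays, of which only L52 on slide 2 lies lower. The 4 CM ST arrays lie above the 4 SC ST arrays.

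In the frontal cortex, 35 of 97 identifiers (33 genes) differed between CM and SC at an adjusted p under 0.05, against 28.6% of all 31395 identifiers. Of these, 31 were lower in CM, against 13.2% of all identifiers, and 4 were higher, against 15.4%. The median log2 difference, CM minus SC, was -0.13 for the family and -0.04 for all identifiers, and the family's differences ran from -0.54 to 1.25. The lowest was that of Rpl39l, which was not called and was well above background on only 2 SC FC arrays and 1 CM FC array. A fit with slide as a term called 0 of 97 in FC (limma, 0% of all identifiers called, 11 of 97 at an unadjusted p under 0.05 against 2219 of 31395), and the family median was 0.04. The lower identifiers included Rpl28 and Rpl19 of the large subunit, Rps9 and Rps13 of the small subunit, and Rpl3, which sits beside the catalytic centre.

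The highest difference in FC was that of Rps21, a small protein of the small subunit. Its log2 intensity was 14.62, 13.44, 13.40 and 13.60 in SC mice L52, L54, L56 and L58, and 14.87, 14.92 and 14.79 in CM mice O54, O56 and O58. The fitted difference was 1.25 ± 0.17 (SE; limma adjusted p = 6.68e-05), 2.38-fold. In the fit, arrays are weighted by how closely they follow the mean of their own group, not by a measure of array quality. The weight was 0.31 for L52, 0.54 to 0.97 for the other SC FC arrays and 1.78 to 2.74 for the CM FC arrays. The groups did not overlap, but SC mouse L52, the SC FC array that was not on slide 1, lay beside the CM arrays rather than beside its own group. With slide in the fit the difference was 0.13 ± 0.17 (limma adjusted p = 0.951).

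Rpl28, of the large subunit, had the largest called fall in FC. It read 13.97, 14.65, 14.41 and 14.67 in the SC mice and 13.98, 14.03 and 14.001 in the CM mice. The difference was -0.47 ± 0.08 (limma adjusted p = 0.000416), and -0.25 ± 0.16 (limma adjusted p = 0.826) with slide in the fit. Again mouse L52 lay with the CM arrays, so the groups overlapped.

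Rpl4, which lines the tunnel through which the nascent chain leaves the ribosome, was higher in CM FC. It read 15.38, 14.98, 14.96 and 14.85 in SC mice and 15.43, 15.45 and 15.38 in CM mice. The difference was 0.44 ± 0.08 (limma adjusted p = 0.000465), and 0.34 ± 0.13 (limma adjusted p = 0.568) with slide. The groups did not overlap, although mouse L52 was within 0.01 of the lowest CM array.

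Other called falls in FC were smaller. They were -0.45 for Rpl19, near the exit of the tunnel, and -0.37 for Rps9 and -0.34 for Rps13 of the small subunit. Rpl3 fell by 0.33 (NM_013762) and by 0.26 (BC009655). Rps6, the substrate of S6 kinase, fell by 0.27, from 13.26, 13.55, 13.51 and 13.60 in SC to 13.24, 13.25 and 13.26 in CM, and was 0.03 with slide in the fit. Rpl3l, the paralog of Rpl3 known from striated muscle, fell by 0.46 from a dim 5.77 ± 0.17 (SD, n = 4) to 5.37 ± 0.16 (SD, n = 3). Among the higher identifiers, Rps24 (NM_207634) rose by 0.29 and Rpl7a by 0.28.

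In the striatum, 16 of 97 identifiers (14 genes) differed between diets, against 9.82% of all identifiers. The direction was the opposite of that in FC: 14 were higher in CM, against 3.45% of all identifiers, and 2 were lower, against 6.37%. The family median was 0.11, and that of all identifiers 0.03. On the array processed signal scaled at the 75th percentile, the split was 8 higher and 3 lower. Adding slide to the fit left 0 of 97 called in ST (limma, 0% of all identifiers, 1 of 97 at an unadjusted p under 0.05 against 1408 of 31395), and the family median was 0.01. Within slide 1, with 4 CM arrays and 1 SC array, the family median was 0.05 and that of all identifiers 0.01.

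Rps21 had the only fall beyond 2-fold in ST. It read 13.41, 15.05, 15.004 and 14.85 in SC mice L52, L54, L56 and L58, and 13.77, 13.61, 13.78 and 13.76 in CM mice O52, O54, O56 and O58. The difference was -1.05 ± 0.19 (limma adjusted p = 0.00484), and 0.16 ± 0.12 (limma adjusted p = 1) with slide in the fit. The groups overlapped, because SC mouse L52, the SC ST array on slide 1, was the lowest of all 8.

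Rps19bp1 had the largest rise in ST. It read 12.05, 11.74, 11.54 and 11.47 in SC mice and 12.25, 12.37, 12.26 and 12.12 in CM mice. The difference was 0.61 ± 0.10 (limma adjusted p = 0.00398), and 0.21 ± 0.10 (limma adjusted p = 1) with slide. The groups did not overlap, and the highest SC array was again that of L52, which shared slide 1 with the CM arrays.

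Rpl3 (NM_013762) rose by 0.42 ± 0.10 in ST (limma adjusted p = 0.0115), from 15.94, 15.36, 15.54 and 15.75 to 16.05, 16.06, 15.96 and 15.85, with L52 inside the CM range and a difference of 0.06 with slide. Smaller called rises were those of Rpl37a (BC096413) at 0.38, Rpl28 at 0.31, Rps24 at 0.30 in both called identifiers, and Rps18 at 0.29. Rpl41, the smallest ribosomal protein, rose by 0.27. Rpl29 rose by 0.26 and Rpl23, which binds Mdm2, by 0.22. Rpl4 fell by 0.31 and was 0.00 with slide in the fit.

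**Figure D2:**
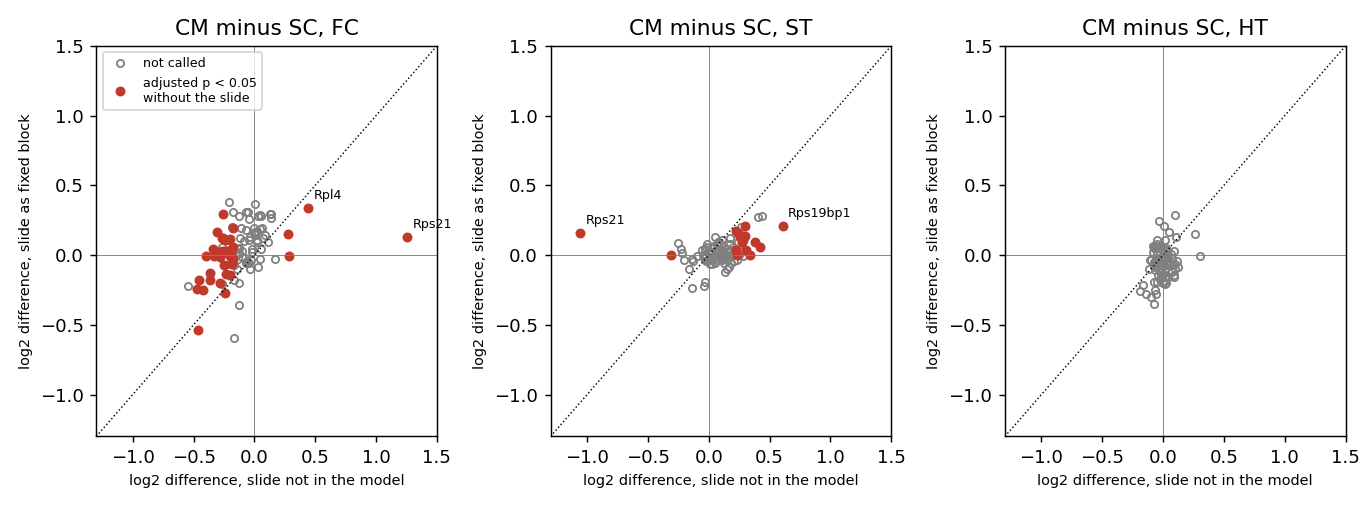
Log2 difference between diets (CM minus SC) of 97 ribosomal protein identifiers in FC, ST and HT, without (horizontal axis) and with slide as a term in the fit (vertical axis); red points were called without slide at an adjusted p under 0.05, and the dotted line marks equal values. In FC and ST, Rps21 lies at 1.25 and -1.05 on the horizontal axis but at 0.13 and 0.16 on the vertical axis.

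In HT, 0 of 97 identifiers were called between diets (limma, 2 of 97 at an unadjusted p under 0.05), against 0.430% of all identifiers called and 4154 of 31395 at an unadjusted p under 0.05. The family median was -0.01, and that of all identifiers 0.01. The 3 highest values were 0.31 for Rpl39l (well above background on 1 SC HT array and 0 CM HT arrays, so that this value has little meaning), 0.26 for Rpl7l1 and 0.12 for Rps14, and the 3 lowest were -0.19 for Rps27a (NM_024277), -0.16 for Rps4x (NM_009094) and -0.14 for Rps4y2, with adjusted p-values of 0.196 or above. The fit with slide also called 0 of 97 (limma, 0% of all identifiers, 4 of 97 at an unadjusted p under 0.05 against 845 of 31395), with a family median of -0.06. Within slide 2, with 4 CM arrays and 1 SC array, the family median was -0.08.

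Under a rule of at least a 2-fold difference and an adjusted p under 0.01, Rps21 was the only identifier called in FC, where 2.94% of all identifiers were, and also the only identifier called in ST, where 0.602% were. In HT, at 1.5-fold and an adjusted p under 0.05, 0 of 97 passed (limma, 2 of 97 at an unadjusted p under 0.05), against 0.178% of all identifiers.

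The diet difference itself was compared between regions in the same fit. It differed between FC and ST for 44 of 97 identifiers, against 30.1% of all identifiers. It was lower in FC for 38 of them, against 14.2% of all identifiers, and higher in FC for 6, against 16%. Between FC and HT it differed for 15 of 97, against 20% of all identifiers, with 11 lower in FC, against 7.66%, and 4 higher, against 12.3%. Between ST and HT, 0 of 97 were called (limma, 26 of 97 at an unadjusted p under 0.05), and 0% of all identifiers were called, with 4658 of 31395 at an unadjusted p under 0.05. Rps21 differed by 2.31 between FC and ST and by 1.32 between FC and HT, and Rps19bp1 by -1.01 and -0.43. The fit with slide called 0 of 97 in each of these 3 comparisons (limma, 0, 8 and 3 of 97 at an unadjusted p under 0.05).

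For 5 of 97 identifiers, all 8 arrays of slide 1 lay apart from all 15 arrays of slides 2 and 3, whatever the region and diet, against 1863 of 31395 identifiers (5.15% and 5.93%). They were Rps21, Rps19bp1, Rpl7a, Rpl12 and Rpl29. Rps21 read 13.40 to 13.78 on slide 1 and 14.62 to 15.07 on the others, and Rps19bp1 read 12.05 to 12.37 on slide 1 and 11.35 to 11.80 on the others. Slide 1 held FC and ST arrays but no HT array.

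**Figure D3:**
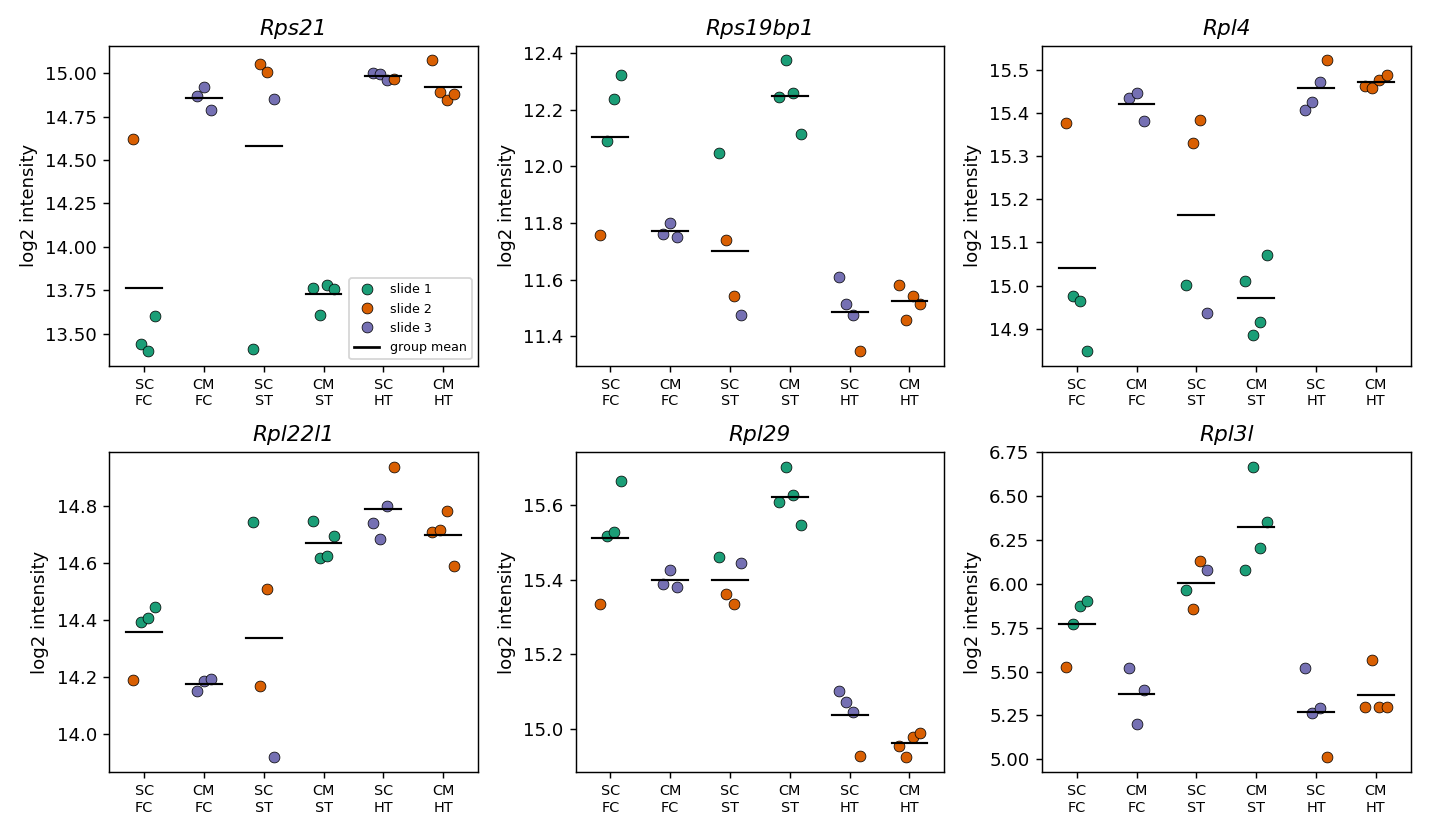
Log2 intensity of Rps21, Rps19bp1, Rpl4, Rpl22l1, Rpl29 and Rpl3l on each of the 23 arrays (points), by region and diet, coloured by slide, with the group mean as a line. Rps21 takes 2 separate levels, 13.40 to 13.78 on slide 1 and 14.62 to 15.07 on slides 2 and 3, and the HT arrays of Rpl29 lie below all FC and ST arrays.

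The regions were compared on chow, and these 3 comparisons share SC arrays with each other and with the diet comparisons. Between ST and FC, 7 of 97 identifiers differed, against 14.9% of all identifiers, 6 of them higher in ST, against 7.71%, and 1 lower, against 7.22%. The family median, ST minus FC, was 0.04, and that of all identifiers -0.00. With slide in the fit, 7 of 97 were called as well, against 10.9% of all identifiers. All 7 were higher in ST, against 5.43% higher and 5.45% lower among all identifiers, with a median of 0.13, and Rpl35a was the only identifier called in both fits. On slides that held both regions, the family median was 0.06 on slide 1 and 0.19 on slide 2. Rpl35a, of the large subunit, read 14.20, 14.42, 14.28 and 14.42 in SC FC and 14.49, 14.53, 14.67 and 14.69 in SC ST. It was 0.27 ± 0.08 higher in ST (limma adjusted p = 0.0321), and 0.29 higher with slide, and the groups did not overlap. Called identifiers without slide included Rps21 at 1.18, Rps24 (NM_207634) at 0.40, Rpl7a at 0.28, Rpl5 at 0.25 and Rps19bp1 at -0.52. Scaled at the 75th percentile in place of quantile normalization, 2 were higher and 1 was lower.

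Between HT and FC, 38 of 97 identifiers (34 genes) differed, against 43.2% of all identifiers. In HT 30 were higher, against 22.8% of all identifiers, and 8 were lower, against 20.4%. The family median, HT minus FC, was 0.11, and that of all identifiers 0.02. This split depended on the scaling, with 17 higher and 10 lower after scaling at the 75th percentile and 19 higher and 8 lower on the processed signal. The family median was then below that of all identifiers, 0.02 against 0.06 at the 75th percentile and 0.04 against 0.10 on the processed signal. Once slide was in the fit, 25 of 97 were called, against 14.8% of all identifiers, 24 of them higher in HT, against 7.53%, and 1 lower, against 7.31%, with a family median of 0.26. On slide 2, which held 1 SC array of each region, the family median was 0.33 and that of all identifiers 0.01.

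In both fits, 15 identifiers were higher in HT than in FC and 1 was lower. Calls shared by both fits were not counted over all identifiers in any region comparison, so these counts are a description. The higher ones included Rps6, the S6 kinase substrate, Rpl11, which binds Mdm2 with Rpl5, Rpl10, which helps to form the catalytic centre, and the paralogs Rpl22l1, Rps27l and Rpl36al. Rps6 read 13.26, 13.55, 13.51 and 13.60 in SC FC and 13.91, 13.68, 13.79 and 14.03 in SC HT. It was 0.31 ± 0.08 higher in HT (limma adjusted p = 0.00626), and 0.58 ± 0.14 (limma adjusted p = 0.00804) with slide. The groups did not overlap. Rpl11 was 0.23 higher, and 0.57 with slide. Rpl10 was 0.21 higher, and 0.49 with slide, and Rpl7 was 0.30 higher, and 0.64 with slide.

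Rpl29, a large-subunit protein also known to bind heparin, was the identifier lower in HT in both fits. It read 15.34, 15.52, 15.53 and 15.66 in SC FC, 15.46, 15.36, 15.34 and 15.44 in SC ST, and 15.10, 15.07, 15.05 and 14.93 in SC HT. It was lower in HT than in FC by -0.50 ± 0.07 (limma adjusted p = 8.81e-06), and by -0.44 ± 0.11 (limma adjusted p = 0.0108) with slide. Against ST the difference was -0.33 ± 0.07 (limma adjusted p = 0.00216), and -0.39 with slide. All HT arrays, also those of CM mice at 14.92 to 14.99, lay below all FC and ST arrays. On slides that held both regions, the differences were -0.41 against FC on slide 2, and -0.42 and -0.37 against ST on slides 2 and 3.

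Between HT and ST, 13 of 97 identifiers differed, against 21.5% of all identifiers, 7 higher in HT, against 10.7%, and 6 lower, against 10.8%. The family median, HT minus ST, was 0.07, and that of all identifiers 0.03. Scaled at the 75th percentile, the split was 1 higher and 5 lower, and on the processed signal 2 higher and 5 lower, so no direction of the family held here. With slide in the fit, 19 of 97 were called, against 15% of all identifiers, 14 higher, against 7.66%, and 5 lower, against 7.32%, with a median of 0.13. On slides that held both regions, the family median was 0.13 on slide 2 and 0.14 on slide 3. In both fits 4 identifiers were higher and 4 were lower, again without a count over all identifiers. Rpl31, near the tunnel exit, was lower in HT by -0.30 and by -0.34 in its 2 identifiers, and by -0.35 and -0.44 with slide. Its first identifier averages 4 probes, and 1 of the 4 lies on a chromosome other than that of the gene in the array annotation, as do 12 of 174 placed probes of 6 genes here. Rps2, at the mRNA entry, was lower by -0.28, and Rpl12, at the base of the stalk, by -0.20. Neither Rps2 nor Rpl12 was called with slide in the fit.

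**Figure D4:**
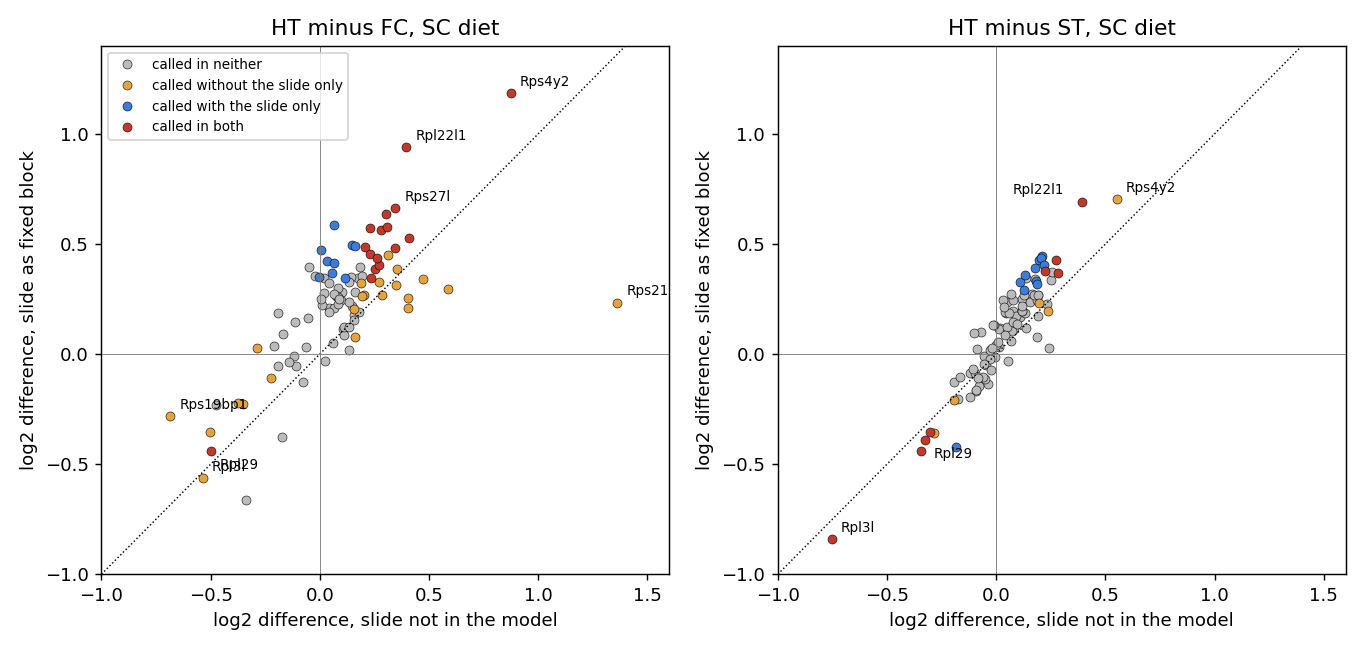
Log2 differences between regions on chow of 97 ribosomal protein identifiers (left, HT minus FC; right, HT minus ST), without (horizontal axis) and with slide as a term in the fit (vertical axis), coloured by whether the identifier was called in neither fit, in 1 or in both, with the line of equal values dotted. Rpl22l1 and Rps4y2 lie at the upper right and Rpl29 at the lower left for HT minus FC, while Rps21 lies at 1.36 on the horizontal and at 0.23 on the vertical axis.

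Paralogs are gene copies, and the proteins of some can take the place of the usual subunit. Of 8 paralog identifiers measured, 4 were higher and 1 was lower in HT than in FC, and 3 were higher and 1 was lower in HT than in ST. The higher identifiers of both comparisons include Rps4y2, a transcribed pseudogene, so these counts are not counts of proteins that replace a subunit. Over all identifiers, 22.8% were higher and 20.4% lower in HT than in FC, and 10.7% and 10.8% in HT than in ST. Of the 11 identifiers of their parent genes, 4 were higher in HT than in FC, 0 were lower, and 0 were called between HT and ST. With slide in the fit, 4 of 8 paralog and 5 of 11 parent identifiers were higher in HT than in FC. Against ST, 2 paralog and 3 parent identifiers were higher and 1 paralog identifier was lower. The shares over all identifiers with slide were 7.53% higher and 7.31% lower against FC, and 7.66% and 7.32% against ST.

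Rpl22l1 read 14.19, 14.39, 14.41 and 14.44 in SC FC, 14.75, 14.17, 14.51 and 13.92 in SC ST, and 14.74, 14.69, 14.80 and 14.94 in SC HT. It was 0.40 ± 0.10 higher in HT than in FC (limma adjusted p = 0.00293), and 0.94 ± 0.15 (limma adjusted p = 0.000379) with slide, and those groups did not overlap. Against ST it was 0.39 ± 0.10 higher (limma adjusted p = 0.00992), and 0.69 ± 0.12 with slide, with SC ST mouse L52 inside the HT range. Its parent Rpl22 was -0.19 in both comparisons and was called in neither. The contrast between paralog and parent was not tested.

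Rps4y2 read 10.32, 10.90, 10.20 and 10.88 in SC FC, 10.92, 10.90, 10.90 and 10.69 in SC ST, and 11.69, 11.37, 11.32 and 11.55 in SC HT. It was 0.88 ± 0.18 higher in HT than in FC (limma adjusted p = 0.000522), and 1.19 ± 0.32 (limma adjusted p = 0.0174) with slide. Against ST it was 0.55 higher, and 0.70 with slide, where it was not called (limma adjusted p = 0.0881). All HT arrays of both diets, from 11.11 up, lay above all FC and ST arrays. The 2 identifiers of Rps4x, its parent, were at 0.19 and -0.00 between HT and FC and were not called without slide, and 1 of them was called at 0.35 with slide. The only probe of NM_009094 is placed on a chromosome other than that of the gene. Whether the Rps4y2 probe also binds Rps4x mRNA was not tested.

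Rps27l read 11.85, 12.24, 12.14 and 12.32 in SC FC and 12.67, 12.54, 12.43 and 12.58 in SC HT. This p53-responsive paralog of Rps27 was 0.35 ± 0.10 higher in HT (limma adjusted p = 0.0103), and 0.66 ± 0.17 (limma adjusted p = 0.0153) with slide, without overlap. Rps27 itself was 0.13 and not called, but its 4 probes are all placed on chromosome 9 in the array annotation, while the gene lies on chromosome 3. Rpl36al and its parent Rpl36a both rose from FC to HT, by 0.27 and 0.25, and by 0.40 and 0.39 with slide.

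Rpl3l read 5.97, 5.86, 6.13 and 6.08 in SC ST and 5.52, 5.26, 5.29 and 5.01 in SC HT. It was lower in HT by -0.75 ± 0.17 (limma adjusted p = 0.00291), and by -0.84 ± 0.22 (limma adjusted p = 0.0150) with slide, and the groups did not overlap. Against FC it was lower by -0.54, and by -0.56 with slide, where it was not called. Rpl10l and Rpl39l were not well above background on every array and were called in no comparison.

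Several genes had identifiers that moved differently. Rps27a, made as a fusion with ubiquitin, read 15.68 ± 0.04 in SC FC and 16.05 ± 0.09 in SC HT (SD, n = 4) for NM_001033865, which was 0.34 higher in HT and 0.48 with slide. Its other identifier, NM_024277, was dim at 5.73 ± 0.13 and 5.27 ± 0.20 and was lower by -0.50, and by -0.35 with slide. Rps24, which is needed to mature the small subunit, differed between diets in FC by 0.29, 0.14, 0.06 and 0.01 in its 4 identifiers, and in ST by -0.25, 0.07, 0.30 and 0.30. The 2 identifiers of Rpl14 were 0.41 and -0.05 between HT and FC, and 0.53 and 0.40 with slide. Rpl37a differed between diets in ST by 0.38 and 0.05 in its 2 identifiers.

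Probes of a single gene also differed. Rpl7a was measured by 4 probes, and 2 of them are annotated to the same 60 bases, chr2:26768759-26768818 on mm9, and differ at 6 bases. The stretch of 30 bases that holds 5 of these differences is shown with the differing bases in capitals, because the pair gives the 2 responses of nearly the same target.
Rpl7a probe a: aaatTgGgttaaatgtaTGctGaattttct
Rpl7a probe b: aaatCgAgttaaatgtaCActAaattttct
Between HT and FC, the log2 difference was 0.39 for probe a (limma adjusted p = 0.00299) and 1.004 for probe b (limma adjusted p = 8.86e-06). Between diets in FC it was 0.32 and 0.86. Probe a was the brighter, with a mean log2 level of 15.19 against 13.11 for probe b. This pair moved the same way in each comparison, but another Rpl7a probe was lower in CM FC by -0.37 (limma adjusted p = 0.00214). All of these probe values are from the fit without slide. The Rpl7a identifier, whose slide 1 arrays lay apart, was not called in either comparison with slide in the fit.

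The base composition of the 175 probes, from 26.7% to 55% G+C with a median of 45%, went along with their differences. Across member probes the Pearson correlation of G+C with the log2 difference was -0.49 for diet in FC, 0.41 for diet in ST, -0.42 for ST minus FC, -0.57 for HT minus FC and -0.39 for HT minus ST, against 0.04, -0.07, -0.00, 0.01 and 0.01 across all 43904 probes. For diet in HT it was -0.19 against -0.25. Probes share arrays, and several probes share a gene, so these values are a description. For diet in FC, the median difference was 0.04 over 36 member probes of at most 35% G+C and -0.27 over 30 above 50%, and for HT minus FC it was 0.34 and -0.12. With slide in the fit, the correlation was -0.56 for diet in FC, 0.06 for diet in ST and -0.51 for HT minus FC, against -0.22, 0.02 and -0.12 across all probes. It was 0.46 for diet in HT, where the sign turned, -0.13 for ST minus FC and -0.48 for HT minus ST, against 0.10, -0.04 and -0.11. Within single arrays, the correlation of probe G+C with the deviation from the mean was 0.46 to 0.65 on the 3 SC FC arrays of slide 1, -0.09 on the SC FC array of slide 2, and -0.63 to -0.35 on the 8 HT arrays. It was -0.21 to -0.14 on the 3 CM FC arrays of slide 3 and 0.25 to 0.51 on the 4 CM ST arrays of slide 1. On SC ST arrays it was 0.34 on slide 1, -0.28 and -0.15 on slide 2, and 0.39 on slide 3. The part of base composition in the differences was not tested.

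**Figure D5:**
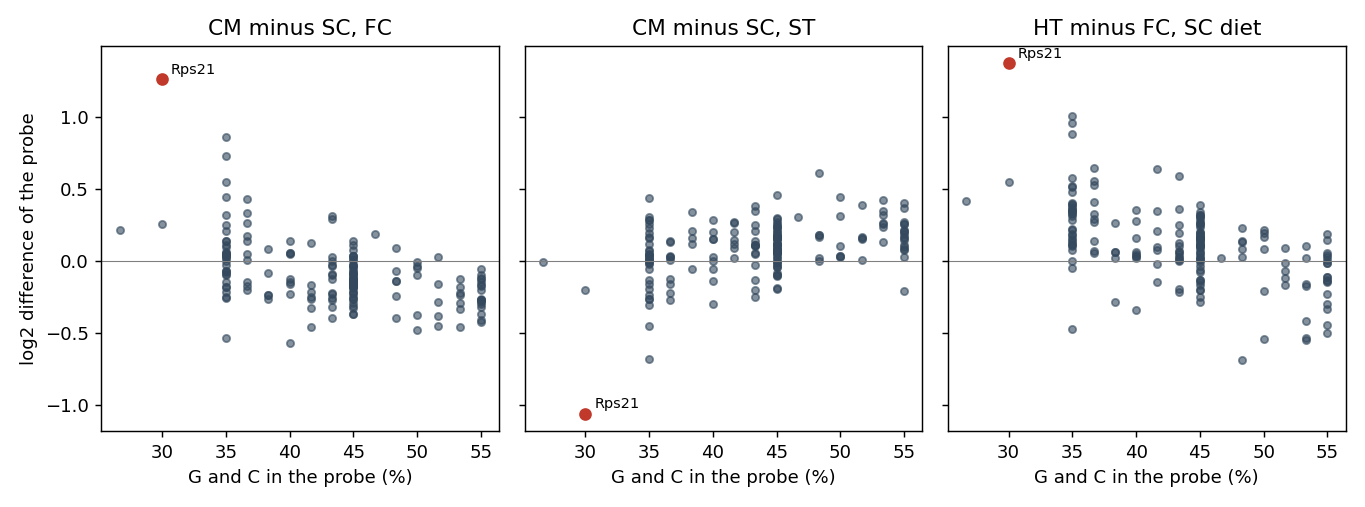
Log2 difference of each of 175 ribosomal protein probes against the G+C content of the probe in percent, for diet in FC, diet in ST and HT minus FC on chow, with the Rps21 probe in red. The points fall with G+C for diet in FC (r = -0.49) and for HT minus FC (r = -0.57), and rise for diet in ST (r = 0.41).

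By role, the differences were spread over both subunits. In FC, CM minus SC, 20 of 57 Rpl and 11 of 40 Rps identifiers fell, with medians of -0.14 and -0.12. Over all identifiers, 13.2% fell and 15.4% rose in FC, 6.37% fell and 3.45% rose in ST, and 22.8% were higher and 20.4% lower in HT than in FC. Of 6 identifiers of the catalytic centre and the stalks (Rpl3, Rpl8, Rpl10, Rpl10a and Rpl12), 4 fell in FC and 2 rose in ST. Of 8 identifiers of the mRNA channel and decoding site of the small subunit, 3 fell in FC, those of Rps14 and Rps26 among them, and 0 were called in ST. Of 9 identifiers of the tunnel and its exit, 2 fell and 1 rose in FC, and 1 fell in ST. Of 3 proteins listed here for binding Mdm2, Rpl5, Rpl11 and Rpl23, 0 were called in FC and Rpl23 rose in ST. In HT against FC, 5 of 10 identifiers of a list of other small-subunit roles (Rps6, Rps27a, Rps7, Rps19 and Rps24 among its genes) were higher and 1 was lower. With slide 3 were higher and 0 lower, against 7.53% and 7.31% of all identifiers. All of these diet calls were lost with slide in the fit.

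Other genes of the translation machinery, counted from lists, gave the setting. Of 7 ribosomal protein genes outside the name rule, Rpsa fell in FC and 0 rose, and in ST 3 rose, Rpsa and Rplp1 among them. Of 19 identifiers of 17 translation factors with TOP mRNAs, 7 fell and 1, Eef1a1, rose in FC, 0 were called in ST, and 5 rose and 1 fell from FC to HT, with a median of 0.15. Of 31 identifiers for ribosome assembly and RNA polymerase I, 5 rose and 4 fell in FC between diets, and 9 rose and 5 fell from FC to HT. Of 16 identifiers of mTORC1 and its readers, 3 rose and 3 fell in FC between diets, and 3 rose and 5 fell from FC to HT. Of 81 identifiers of 76 mitochondrial ribosomal protein genes, 3 rose and 19 fell in FC between diets, and 28 rose and 6 fell from FC to HT, with medians of -0.10 and 0.10. Over all identifiers, 15.4% rose and 13.2% fell in FC, and 22.8% rose and 20.4% fell from FC to HT. With slide in the fit, no identifier of these lists was called by diet in FC or ST. From FC to HT, it left 3 translation factor identifiers higher, 3 assembly identifiers higher and 3 lower, 2 mTORC1 identifiers lower, and 7 mitochondrial ribosomal protein identifiers higher. Over all identifiers, 7.53% were higher and 7.31% lower in HT than in FC with slide in the fit. No identifier of these lists was called between diets in HT by limma.

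Markers of cell types moved along with some of these comparisons. Between diets in FC, 5 of 8 oligodendrocyte identifiers fell and 1 rose, with a mean log2 level per array of 12.1 to 13.1 in SC and 12.04 to 12.35 in CM, 3 of 8 astrocyte identifiers fell, and 1 of 9 microglial identifiers rose. In ST, 0 identifiers of these 3 lists were called between diets. From FC to HT, 6 of 8 oligodendrocyte identifiers rose and 1 fell, with 13.1 to 13.4 in SC HT, and 6 of 9 microglial identifiers fell, from 10.4 to 10.7 in SC FC to 10.1 to 10.3 in SC HT. The shares over all identifiers without slide were those just given. With slide, no diet call of these lists remained. From FC to HT, 4 oligodendrocyte identifiers were then higher and 2 microglial identifiers lower, against 7.53% of all identifiers higher and 7.31% lower. Of 13 striatal identifiers, 1 was lower in CM FC, with a median difference of -1.02 and levels of 9.21 to 11.0 in SC FC and 9.30 to 10.9 in CM FC. Choroid plexus and red blood cell identifiers were not called in any of the 3 diet comparisons, but the choroid plexus medians were -0.81 in FC and 1.21 in ST, where the level was 7.27 to 8.67 in SC and 7.91 to 13.1 in CM. The part of cell composition in the ribosomal protein differences was not tested.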

How the data were processed

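Total RNA was labelled with Cy3 and hybridized to one-color Agilent 8x60K mouse arrays, and the authors deposited Feature Extraction files (version 10.7.3.1) with intensity values and spot flags for 62976 spots per array, and a table of normalized log2 values. The deposited log2 values are the authors' result of background correction (normexp) and quantile normalization of median signals, a filter that dropped probes unless at least 4 arrays exceeded the 95th percentile of the 308 negative controls by a factor of 1.1, and averaging by transcript identifier. The factor of the filter applied to log2 values. These steps, repeated here, gave the same log2 values to within 5e-09. The deposited flags for spots well above background and saturated were used for detection.

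Differences were fitted with limma 3.58.1 and statmod 1.5.0 in R 4.3.3 to 6 group means, with weights per array and with mouse as the random block, and p-values were adjusted (Benjamini-Hochberg) over 31395 identifiers. Since arrays are weighted, fitted differences are not plain differences of means. Regions of a mouse are paired by the mouse names in the labels (correlation within mouse -0.04, and between -0.49 and 0.13 for single pairs of regions); the numbers that lean and obese mice share do not pair animals. Mice are separate animals. The fit without slide was tried on simulated data for diet in FC. These data held no slide or mouse effect, so the trial cannot speak to diet and slide going together. On the measured arrays, the fit was also run with slide as a fixed term. Alternatives were other normalizations, filters, weights and blocks, and leaving out each array. Members and lists were chosen with earlier results of these data known. Genes were named by a rule: every called member where 8 or fewer were called, otherwise the 5 largest rises and 5 largest falls without overlap of groups, the 3 highest and 3 lowest where none was called, and the genes of the role lists and paralogs with their parents. Other genes named were chosen after their values were seen. Values of a few genes are not reported here by name; they remain in the counts and medians.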

Additional observations from a re-analysis of the deposited data

Results flagged for a closer look

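In 8 of 120 groups of 4 arrays, of 6 genes, 1 array lay far from the other 3; chance alone sets apart about 1 in 20 groups. Rps21 read 14.6 in SC FC mouse L52, above the others, 13.4 in SC ST mouse L52, below the others, and 13.6 in CM ST mouse O54, just below the others. The L52 arrays were the SC FC array outside slide 1 and the SC ST array on slide 1. Also in SC FC mouse L52, Rpl5 read 13.4 and Rpl8 read 15.2. In SC ST mouse L58, Rps4y2 read 10.7 and Rpl36al read 13.2. Rpl12 read 14.8 in SC HT mouse L52.

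The diet difference differed between FC and ST for 44 identifiers and between FC and HT for 15 by the interaction term. For FC minus ST, it was 2.31 for Rps21, 0.75 for Rpl4 and 0.54 for Rps24 (NM_207634). It was -1.01 for Rps19bp1, -0.83 for Rps27a (NM_024277), -0.78 for Rpl28, -0.72 for Rpl3l, -0.65 for Rpl37a (BC096413), -0.60 for Rpl3 (BC009655), -0.52 for Rps18 and -0.39 for Rps6. For FC minus HT, it was 1.32 for Rps21, 0.43 for Rpl4 and 0.31 for Rps24 (NM_207634), and -0.56 for Rpl3l, -0.52 for Rpl28, -0.43 for Rps19bp1 and -0.31 for Rps6. With slide as a fixed term, none of these was called by limma.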

How the results depend on the processing

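With slide as a fixed term, calls between diets went to 0 in FC and ST, calls at the stricter rule to 0 in both, and calls for FC against ST and FC against HT to 0. Family medians went to 0.0431 for diet in FC, which turned its sign, 0.0142 for diet in ST, 0.126 for ST minus FC, 0.26 for HT minus FC (25 calls) and 0.13 for HT minus ST. Signs also turned for diet in FC in Rps24 (NM_207634) at -0.0026, Rps6 at 0.0290, Rpl3 (BC009655) at 0.29, Rps13 at 0.0437, Rps26 at 0.0092 and Rps14 at 0.11, for diet in ST in Rps21 at 0.16, Rpl4 at 0.0045 and Rpl3 (BC009655) at -0.00046, and for HT minus FC in Rps14 at 0.0297. Within single slides, medians were 0.0485 for diet in ST, -0.0822 for diet in HT, 0.19 for ST minus FC (slide 2), 0.33 for HT minus FC, and 0.13 and 0.14 for HT minus ST. With slide as a random block, calls were 4 in FC, 0 in ST, 4 for ST minus FC, 6 for FC against ST and 2 for FC against HT, and 0 at the stricter rule in FC and ST.

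Without array weights, calls were 6 in FC, 1 in ST, 23 for HT minus ST, 27 for FC against ST and 0 for FC against HT, and 0 at the stricter rule in FC and ST. With the arrays of the 2 compared groups alone, calls were 8 in FC, 0 in ST, 0 for ST minus FC, 25 for HT minus FC and 3 for HT minus ST, and 0 at the stricter rule in ST. Per probe, they were 60 in FC, 28 in ST, 17 for ST minus FC, 60 for HT minus FC, 21 for HT minus ST, and 79, 27 and 1 for the 3 comparisons between regions. On the processed signal, medians were -0.20 in FC, 0.0450 for HT minus FC and 0.0020 for HT minus ST (7 calls), with 0 at the stricter rule in ST. At the 75th percentile, they were -0.21, 0.0153 and -0.0044, which turned the sign of HT minus ST (6 calls), with 3 calls for ST minus FC and 1 for ST against HT. Without the filter, ST had 9 calls and 0 at the stricter rule. An offset of 50 gave 13 calls for ST minus FC and 5 for ST against HT, and REML weights and the flag-based filter 4 each for ST against HT. The cause was not tested.

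Without the mouse as replicate block, ST against HT had 2 calls. A replicate block on the number shared by lean and obese mice, which does not pair animals, gave 10 calls and 0 at the stricter rule in ST. No other count of calls moved by over 1.5 times with either block.

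Leaving out 1 array at a time gave 17 (without SC FC L54) to 42 calls in FC, with medians of -0.16 to -0.07 and 1 to 1 at the stricter rule. ST had 4 (without CM ST O54) to 25 (without SC ST L54) calls, medians of 0.09 to 0.14, and 0 (without SC ST L58) to 1 at the stricter rule. HT had 0 to 0 calls, medians of -0.05 to 0.00 and 0 to 0 at the stricter rule. ST minus FC had 4 (without SC ST L56) to 17 (without SC ST L54) calls and medians of 0.01 to 0.08, HT minus FC 30 to 44 and 0.07 to 0.14, and HT minus ST 7 (without SC ST L58) to 18 and 0.04 to 0.09. FC against ST had 41 to 50 calls, FC against HT 7 (without SC HT L56) to 28 (without SC FC L52), and ST against HT 0 to 6 (without SC ST L52).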
